A study of Mus musculus with 7 samples.

Results

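The genes Kmt2a, Kmt2b, Kmt2c and Kmt2d, which encode histone H3 lysine 4 (H3K4) methyltransferases, and Top1, Top2a and Top2b, which encode DNA topoisomerases, were examined in chromatin immunoprecipitation sequencing (ChIP-seq) peak lists of mouse cerebellar granule cells. These 7 genes, of 21938 protein-coding genes on chromosomes 1 to 19, X and Y, were chosen by name, and every peak whose centre lay in a gene body or within 50 kb of it was assigned to the gene. Coordinates are those of mm10 (GRCm38), with gene models of GENCODE M21. Wild-type (WT) granule neuron progenitors (GNPs), the dividing precursors of granule neurons, were freshly isolated from P7 pups (C57BL/6 in the labels, C57BL/6N in the study's methods) on a Percoll gradient and profiled for Chd7, a chromatin remodeller, and for acetylated lysine 27 of histone H3 (H3K27ac), a mark of active promoters and enhancers. Chd7-deficient GNPs of the same age and strain were profiled with the same Chd7 antibody. The labels call them Chd7 KO, and the mutant mice of the study were Atoh1-Cre::Chd7 f/f, in which Cre is driven by Atoh1, a gene active in granule cell precursors. In these mice the posterior lobe of the cerebellum keeps some Chd7, so the isolated GNPs may not all lack it. WT and Chd7-deficient cerebellar granule neurons (CGNs), the differentiated cells, were obtained by culturing GNPs without Sonic hedgehog for 48 h and profiled for the Top2b protein. Each of the 5 peak lists came from 1 sample, so no test between conditions was possible and no p-value between conditions is given. Values are therefore set beside the same count over all protein-coding genes or all peaks of a list. Peaks come from whole cell populations, so a mark in fewer cells and a weaker mark per cell cannot be told apart.

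Methylation of H3K4 marks active regulatory DNA. Kmt2a and Kmt2b act in complexes with menin, mainly at promoters, whereas Kmt2c and Kmt2d act in complexes with the demethylase Kdm6a and are best known for monomethylation of H3K4 at enhancers. Topoisomerases relieve the supercoiling that transcription and replication build up in DNA. Top1 cuts a single strand, whereas Top2a and Top2b pass one duplex through a break in both strands. Top2a belongs to dividing cells, and Top2b is the form retained by neurons. These enzymes are of interest here because the study investigated how Chd7 and topoisomerases act in granule cells. The values below describe the genes that encode them and not where the methyltransferases act.

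The WT lists held 31400 H3K27ac peaks (median width 646 bp, median fold enrichment over the local background 4.35) and 1946 Chd7 peaks (median width 420 bp, median fold enrichment 4.07). The Chd7 list of Chd7-deficient GNPs held 96 peaks. The Top2b lists held 17030 peaks in WT CGNs and 21505 in Chd7-deficient CGNs, all peaks of a list having the same width, and gave positions only. The lists give no read totals, and the study's methods give only a general minimum of mapped reads. The depth of each library is thus unknown. As a check on the cells, an H3K27ac peak lay within 1 kb of the start of 5 of 5 granule lineage genes, with fold enrichments from 3.55 at Atoh1 to 31.6 at Zic1, and of 0 of 6 genes of Purkinje cells, glia and vessels (Calb1, Pcp2, Gfap, Aqp4, Mog and Pecam1). Of the cell-cycle genes, Mki67 had such a peak (fold enrichment 15.4) and Ccnd1 had none.

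The sequences under the Chd7 peaks upstream of Kmt2a are shown first, because only this member had Chd7 within 1 kb of its start. Each is a window of 121 bases around a peak summit on the plus strand of GRCm38, with the summits 214 bp and 974 bp upstream of the gene start. The windows lie at chr9:44881450-44881570 and chr9:44882210-44882330. A further window, chr9:44767507-44767627, lies under the Chd7 peak at the start of the neighbouring gene Arcn1. Capitals mark matches on either strand to any of 7 short motifs. These are the GC box with the letters GGGCGG, the box named CCAAT after its own letters, and the E box searched as CAGCTG. They also include the E box form known for Atoh1, searched as CAGATG, the core element of ETS factors with the letters CCGGAAG, the cell-cycle element CHR with the core TTTGAA, and the cyclic AMP element searched as TGACGTCA.

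Kmt2a, summit 214 bp upstream: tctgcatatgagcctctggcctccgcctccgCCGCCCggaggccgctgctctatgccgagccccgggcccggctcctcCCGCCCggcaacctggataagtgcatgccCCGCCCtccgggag
Kmt2a, summit 974 bp upstream: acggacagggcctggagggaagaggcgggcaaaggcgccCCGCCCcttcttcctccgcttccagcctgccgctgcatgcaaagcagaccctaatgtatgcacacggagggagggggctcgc
Arcn1 start, summit 35.8 kb past the end of Kmt2a: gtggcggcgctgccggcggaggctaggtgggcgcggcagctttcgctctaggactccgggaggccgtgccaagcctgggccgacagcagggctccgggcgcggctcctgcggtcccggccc

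The window nearer to Kmt2a held 3 GC boxes and 12 CpG dinucleotides, and its GC content was 73.6%. The window farther upstream held 1 GC box and 8 CpGs (66.9% GC). The Arcn1 window held none of the 7 searched motifs but 15 CpGs (77.7% GC). Over all 1902 Chd7 summit windows of this length, 399 held a GC box and the median was 4 CpGs. CAGATG, the E box form that Atoh1 and related factors bind, was in 16.5% of all windows and in none of these 3.

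Promoters were compared as the 250 bases before the RefSeq gene start (GRCm38.p6), which were given for 6 of the 7 genes, all but Kmt2b. The 4 shown are those of the 3 genes whose start carried a Top2b peak in Chd7-deficient CGNs (Kmt2a, Kmt2d and Top2a) and that of Top2b, which did not. They are printed in the direction of transcription with the same motifs in capitals. The positions are chr9:44881290-44881539 (minus strand) for Kmt2a, chr15:98871206-98871455 (minus strand) for Kmt2d, chr11:99024190-99024439 (minus strand) for Top2a and chr14:16364956-16365205 (plus strand) for Top2b. The Kmt2a promoter overlaps the first Chd7 window above, which shows the other strand.

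Kmt2a promoter: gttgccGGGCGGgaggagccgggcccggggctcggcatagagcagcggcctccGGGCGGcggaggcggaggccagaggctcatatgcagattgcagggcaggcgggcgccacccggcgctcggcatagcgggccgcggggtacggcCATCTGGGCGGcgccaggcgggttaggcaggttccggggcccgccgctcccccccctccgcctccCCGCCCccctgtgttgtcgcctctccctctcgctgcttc
Kmt2d promoter: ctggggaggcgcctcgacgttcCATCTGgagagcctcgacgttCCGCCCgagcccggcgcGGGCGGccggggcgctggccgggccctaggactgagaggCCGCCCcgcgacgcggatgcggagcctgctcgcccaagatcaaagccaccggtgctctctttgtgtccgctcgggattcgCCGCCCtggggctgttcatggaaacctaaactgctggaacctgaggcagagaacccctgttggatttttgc
Top2a promoter: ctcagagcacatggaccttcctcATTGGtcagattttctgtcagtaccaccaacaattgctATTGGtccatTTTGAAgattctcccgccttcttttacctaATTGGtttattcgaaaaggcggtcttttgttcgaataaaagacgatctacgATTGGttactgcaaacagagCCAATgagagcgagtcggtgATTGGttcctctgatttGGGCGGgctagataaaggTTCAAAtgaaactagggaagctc
Top2b promoter: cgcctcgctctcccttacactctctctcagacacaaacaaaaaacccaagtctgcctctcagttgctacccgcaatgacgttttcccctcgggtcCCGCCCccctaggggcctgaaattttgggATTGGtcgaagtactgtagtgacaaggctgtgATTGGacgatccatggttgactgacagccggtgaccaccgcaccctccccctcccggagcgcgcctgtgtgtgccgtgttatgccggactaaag

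The promoters differed widely in base composition. Kmt2c was highest, with 91.6% GC, 48 CpGs and 12 GC boxes, some of which overlap, followed by Kmt2a with 76.8% GC, 29 CpGs and 4 GC boxes. Kmt2d had 67.6% GC with 26 CpGs and Top1 63.6% GC with 20 CpGs. Both Top2 genes were lower, with 57.6% GC and 15 CpGs at Top2b and 43.6% GC and 9 CpGs at Top2a. All 6 promoters had more CpGs than the median of 6 over 32851 promoters, and all 6 held a GC box, against 32.7% of all promoters. That background was not matched for H3K27ac at the start, which all members carried. CCAAT occurred 6 times in the Top2a promoter and 2 times in that of Top2b, and in none of the other 4, against 33.8% of all promoters. TTTGAA, the core of the cell-cycle element CHR, occurred 2 times at Top2a and at no other member (16.0% of all promoters). CAGATG, read as CATCTG, occurred once at Kmt2a, where it shares a base with a GC box, and once at Kmt2d (14.4% of all promoters). These are matches of letters and not measured binding.

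All 7 genes carried H3K27ac at their start in WT GNPs, as did 9416 of all protein-coding genes (42.9%). The strongest peak within 1 kb of the start had a fold enrichment of 30.2 at Top1, 26.1 at Top2b, 25.8 at Kmt2b, 21.8 at Kmt2c, 21.4 at Kmt2a, 15.4 at Kmt2d and 12.9 at Top2a. All 7 lay above the median of 8.48 over genes with H3K27ac at the start, and the median of the 7 was 21.8. Top1 ranked 117 of 9416, Top2b 285 and Kmt2b 305, whereas Top2a, the lowest member, ranked 2492. With 1 library there is no replicate spread against which to set the neighbours in this order, and Top2b and Kmt2b, or Kmt2c and Kmt2a, are close in value.

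**Figure D1:**
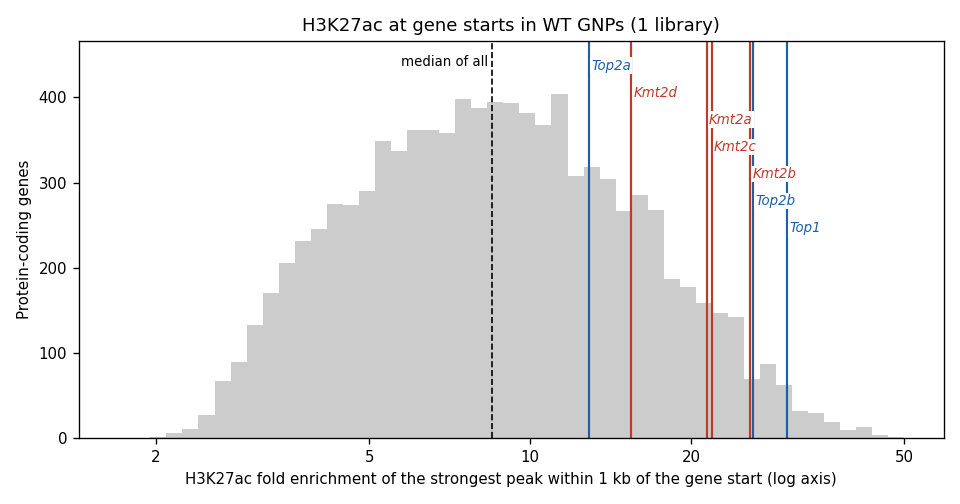
Histogram of the H3K27ac fold enrichment (log axis) of the strongest peak within 1 kb of the gene start over 9416 protein-coding genes of WT GNPs, 1 library. Vertical lines mark the KMT2 genes (red) and the topoisomerase genes (blue), which lie between 12.9 (Top2a) and 30.2 (Top1), all to the right of the dashed median of 8.48.

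The pileup, which counts the fragments that cover a summit and was scaled by the peak caller, gave a partly different order. The highest pileup of any peak within 1 kb of the start was 271.1 at Top1 and 217.4 at Top2b. It lay between 142.1 and 158.1 at the other 5 genes, with Kmt2a highest of these and Top2a and Kmt2c lowest. At Kmt2c this value belongs to the peak upstream of the start, which had a fold enrichment of 13.0. The Kmt2c peak with a fold enrichment of 21.8 had a pileup of 129.9. The acetylated region was broadest at Kmt2a (2716 bp) and Kmt2c (2709 bp in 2 peaks separated by a gap upstream of the start), followed by Top2b (2344 bp), Kmt2b (2022 bp) and Kmt2d (1896 bp). It covered 1423 bp at Top1 and 963 bp at Top2a, against a median of 1186 bp over all genes with H3K27ac at the start. Top1 thus combined the highest enrichment with a width near the middle of all genes, and Top2a was the only member narrower than the median.

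In total, 37 H3K27ac peaks were assigned to the 7 genes, 8 of them with their centre inside a gene. The members had a median of 5 peaks each, against 4 over genes with H3K27ac at the start and 2 over all protein-coding genes. At least 1 peak was found for 7 of 7, against 73.5% of all genes. Their gene bodies were long, with a median of 70.3 kb against 17.4 kb, and a long gene has a larger window. The share of this in the counts was not tested. For only 16 of the 37 peaks was the member the protein-coding gene with the nearest start. In 6 of 7 genes the strongest assigned peak was the one at the start. The exception was Top1, where the peak at the start of Plcg1, the phospholipase C gamma gene 8.68 kb past the end of Top1, was stronger (34.9 against 30.2).

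Among the methyltransferase genes, Kmt2b (19.9 kb long, chr7:30568858-30588726, minus strand) had the most assigned peaks, 10, in a dense gene neighbourhood. The peaks with a fold enrichment above 6 other than its own lay at the starts of Proser3 and Hspb6 (10.5), U2af1l4 and Psenen (9.78), Cox6b1 (6.83) and Arhgap33 (6.28). No peak other than that at the start lay within Kmt2b. Kmt2a (77.9 kb, chr9:44803355-44881296, minus strand) had 4 peaks, of which the other 3 lay at or near Arcn1 (18.3), Ift46 (9.43) and Atp5l (8.16). Kmt2c was the longest member (227.0 kb, chr5:25271798-25498783, minus strand), yet no H3K27ac peak lay in its body past the start. Its distant peaks above the list median lay 48.8 kb past its end at the starts of E130116L18Rik and Galnt11 (11.8) and 31.3 kb upstream (9.04). Kmt2d (39.5 kb, chr15:98831669-98871204, minus strand) had peaks 9.99 kb upstream in Rhebl1 (5.92) and at the start of Lmbr1l (12.1 and 7.14). A further peak (5.03) had its summit 39.4 kb downstream of the Kmt2d start, in the 3′ UTR of Kmt2d. The centre of that peak lay just outside Kmt2d, 30 bp upstream of the start of Prkag1.

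Among the topoisomerase genes, Top1 (76.9 kb, chr2:160645888-160722764, plus strand) had 2 weak intronic peaks, 7.30 kb and 10.2 kb downstream of the start, with fold enrichments of 2.52 and 2.71, both below the median of the list (4.35). Top2b (70.3 kb, chr14:16365179-16435462, plus strand) had 1 intronic peak, 15.4 kb downstream of the start (4.95), and 2 weak peaks past its end in the neighbouring Rarb (3.67 and 3.04). Top2a (31.2 kb, chr11:98992943-99024189, minus strand) had the fewest peaks, 2, the second lying 23.6 kb upstream in Igfbp4 (10.8). When neighbouring H3K27ac peaks were stitched over the distance usual for super-enhancers and ranked by width times pileup, 612 of 17535 regions passed the limit used for super-enhancers, and 0 of the 7 genes overlapped one. Top2b came closest, at rank 674, followed by Kmt2a at 908 and Top1 at 993, and Top2a was last at 4151. With stitching within 5 kb, 642 regions passed and Top2b was the 1 member among them. The share of all protein-coding genes that overlap such a region was not computed, so neither count has a background.

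**Figure D2:**
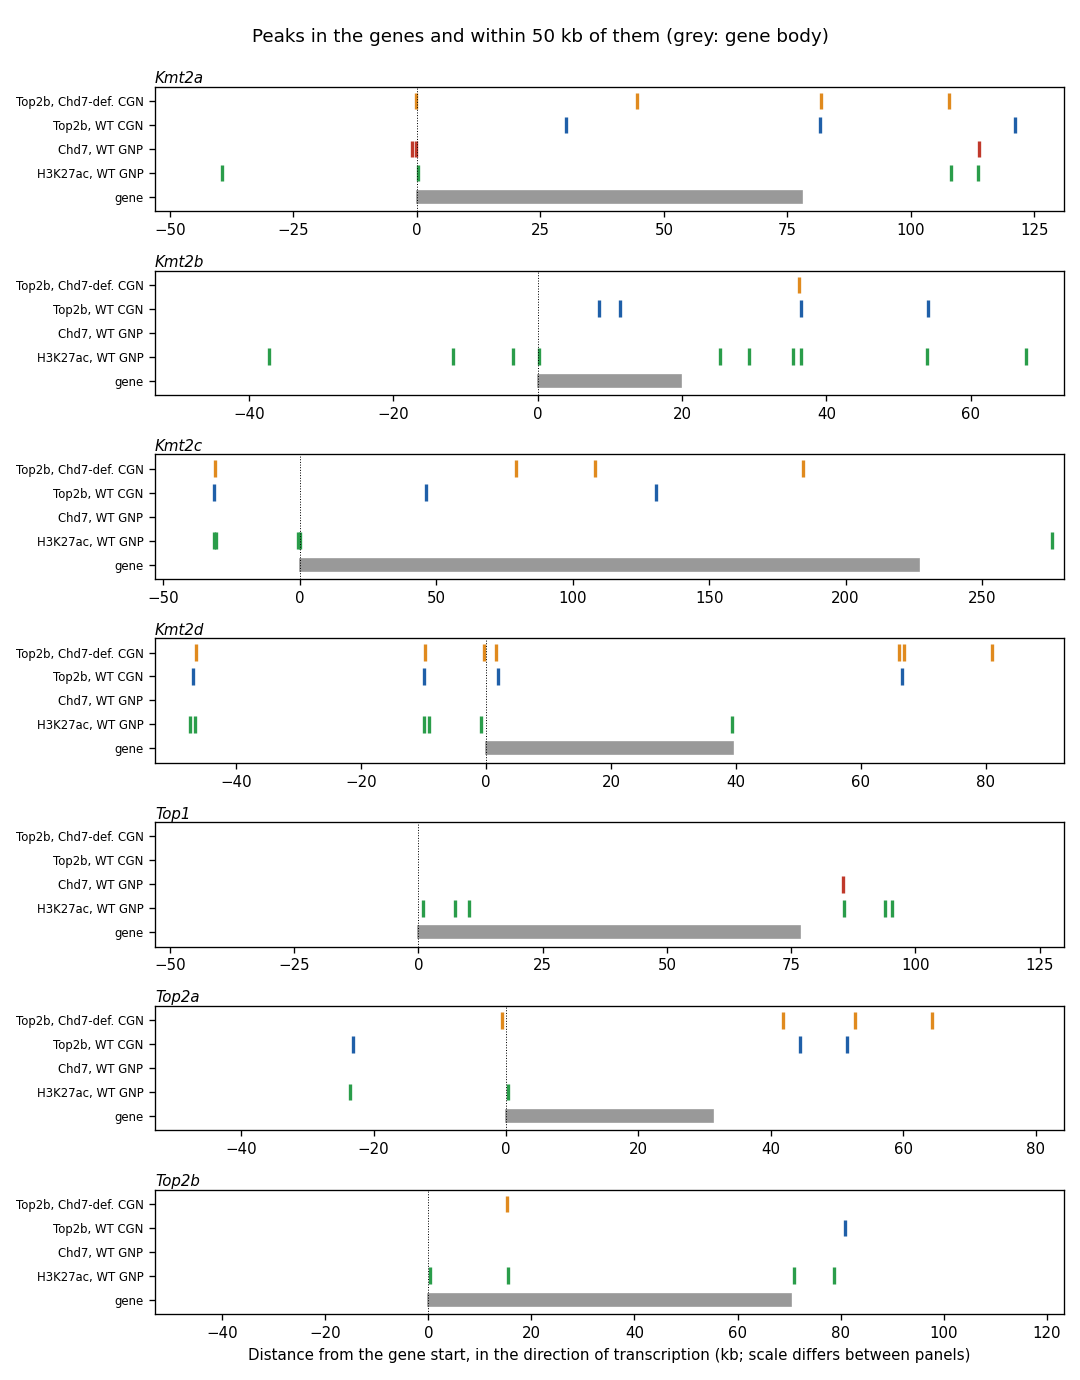
Map of each gene (grey bar) with the peaks assigned to it, against the distance from the gene start in the direction of transcription (kb, scale differing between panels). Rows show H3K27ac and Chd7 in WT GNPs and Top2b in WT and Chd7-deficient CGNs, 1 library each. H3K27ac (37 peaks) is present at every start, and Chd7 (4 peaks) is assigned to Kmt2a and Top1 alone. The Chd7 peak assigned to Top1 lies at the start of the neighbour Plcg1, and the farthest one assigned to Kmt2a at that of Arcn1. Top1 has no Top2b peak.

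WT Chd7 peaks were assigned to 2 of the 7 genes, Kmt2a with 3 peaks and Top1 with 1, against 14.3% of all protein-coding genes (3136 genes). No Chd7 peak was found for Kmt2b, Kmt2c, Kmt2d, Top2a or Top2b. Within 1 kb of the start, only Kmt2a of the 7 had Chd7. The background for this is 7.85% of genes with H3K27ac at the start, or 16.8% of the 2492 genes whose start was at least as enriched for H3K27ac as the lowest member. These counts are too small to set the genes apart from the background.

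The Kmt2a peak nearest to the start (chr9:44881362-44881694, summit 214 bp upstream) was covered by 25 fragments at its summit, which is its pileup. Its fold enrichment was 2.80 with a −log10 q-value of 2.49. The next (chr9:44882054-44882443, summit 974 bp upstream) had a pileup of 19 and was enriched 3.70-fold (−log10 q-value 3.38). Both lie outside the Kmt2a gene body, in an annotated antisense gene that overlaps the Kmt2a start, and both fall under the single broad H3K27ac peak of the Kmt2a start. ChIP-seq has no strand, so the peaks cannot be assigned to one gene of this pair. The third peak assigned to Kmt2a (chr9:44767306-44767658) had its summit 35.8 kb past the end of the gene. Its centre lay 363 bp downstream of the start of Arcn1, which encodes a subunit of the COPI vesicle coat. Its pileup was 15 and its enrichment 4.26-fold (−log10 q-value 3.42). The peak assigned to Top1 (chr2:160731137-160731491) had its summit 8.58 kb past the end of Top1 and its centre 14 bp from the start of Plcg1. It had a pileup of 17 and an enrichment of 3.94-fold (−log10 q-value 3.38). By nearest start, these 2 peaks belong to Arcn1 and Plcg1.

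All 4 peaks were weak within the Chd7 list, with −log10 q-values below its median of 4.38, and below the median of 3.96 over the Chd7 peaks within 1 kb of a protein-coding start. The Kmt2a peak nearest to the start stood at percentile 3.80 of the fold enrichments although its pileup was above the median of 21, and the others stood at percentiles 31.7, 43.5 and 58.1. None reached a −log10 q-value of 5. All 4 overlapped H3K27ac, as did 77.9% of the Chd7 peaks, and 3 of the 37 assigned H3K27ac peaks overlapped Chd7, against 4.98% of all H3K27ac peaks. The 3 acetylated regions were among the stronger ones, with fold enrichments of 34.9 at Plcg1, 21.4 at Kmt2a and 18.3 at Arcn1.

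**Figure D3:**
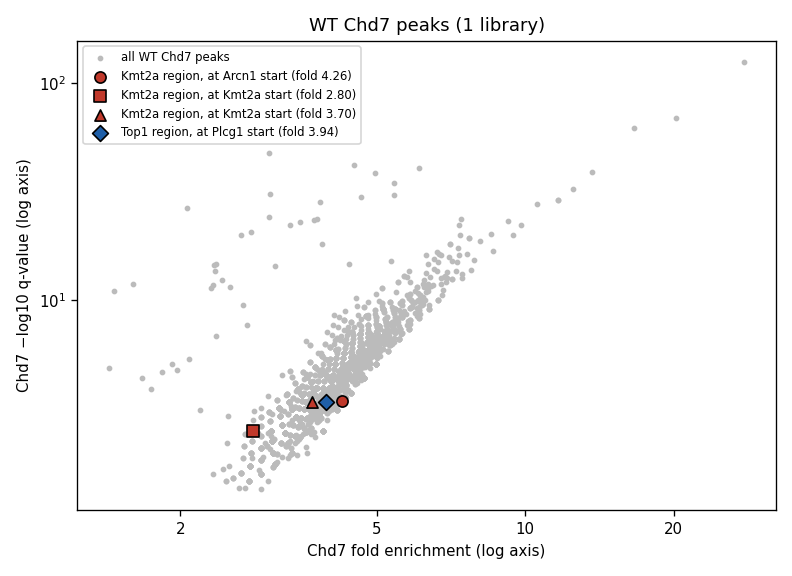
Fold enrichment against −log10 q-value (both log axes) of the 1946 Chd7 peaks of WT GNPs (grey, 1 library), with the 4 peaks assigned to Kmt2a (red) and Top1 (blue). The 4 lie in the lower part of the cloud, between 2.49 and 3.42 in −log10 q-value against a median of 4.38.

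In Chd7-deficient GNPs, no Chd7 peak was assigned to any of the 7 genes, and none of the 4 WT peaks had a counterpart. The background is small, since that list covered 0.205% of all protein-coding genes (45 genes). A peak present in the WT list and not in the other says that it did not pass the caller's limit there. With peaks as weak as these, read depth and Chd7 loss cannot be told apart from the lists, because neither the read totals nor the signal below the limit are in the lists.

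Top2b peaks in CGNs were assigned to 6 of the 7 genes in each genotype, all but Top1, against 62.2% of protein-coding genes in WT and 71.0% in Chd7-deficient cells. The WT list gave 18 peaks, 6 of them inside a gene, and the Chd7-deficient list 21, also with 6 inside. The median was 3 peaks per member in WT and 4 in Chd7-deficient CGNs, against 1 over all genes in either list. As for H3K27ac, the greater length of these genes stands beside these medians and was not tested. Per gene, WT and Chd7-deficient CGNs gave 3 and 4 peaks at Kmt2a, 4 and 1 at Kmt2b, 3 and 4 at Kmt2c, 4 and 7 at Kmt2d, 0 and 0 at Top1, 3 and 4 at Top2a, and 1 and 1 at Top2b. The Chd7-deficient number was the lower one only at Kmt2b, while the Chd7-deficient list as a whole was 1.26 times as long.

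At the gene starts the lists differed. No member had a WT Top2b peak within 1 kb of its start, against 14.8% of genes with H3K27ac at the start (20.2% of those at least as enriched as the lowest member). In Chd7-deficient CGNs 3 members did, against 36.2% (44.3% of those at least as enriched), namely Kmt2a (187 bp upstream), Kmt2d (400 bp upstream) and Top2a (570 bp upstream). The same direction was seen over all genes with H3K27ac at the start, of which 2525 had a start peak in the Chd7-deficient list only, 511 in the WT list only and 887 in both. These are counts of listed peaks, and the Top2b lists give no signal by which to compare the genotypes. The 3 members are thus part of a difference between the lists as wholes, and with 1 library per genotype the genotype and the library cannot be told apart. All 3 start peaks lay upstream, those of Kmt2a and Kmt2d in the first 500 bp, where 11.4% of all these genes had a Chd7-deficient Top2b peak, and that of Top2a in the next 500 bp, where 1.91% had one. In the first 500 bp downstream, the bin with the most peaks in both lists, the shares were 19.2% in the Chd7-deficient and 8.09% in the WT list.

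**Figure D4:**
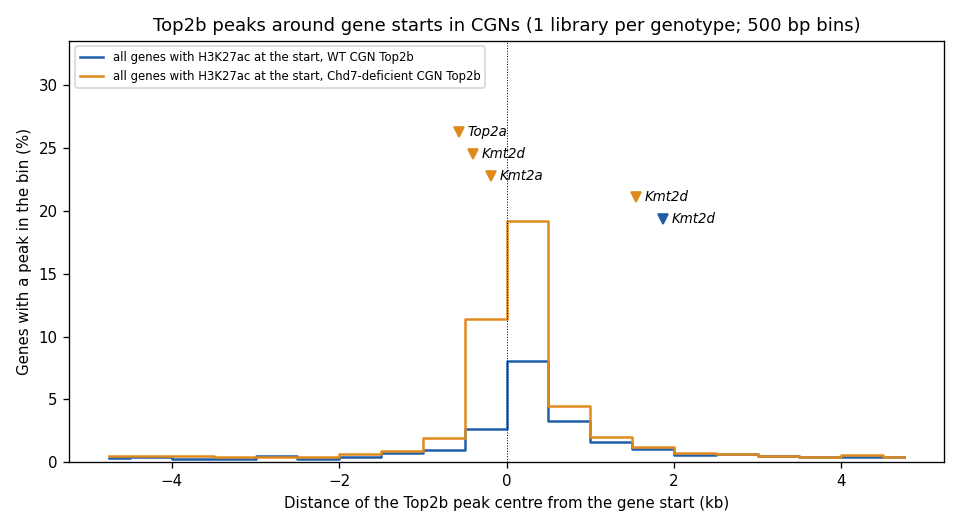
Share of the 9416 genes with H3K27ac at the start that have a Top2b peak centre in each 500 bp bin, against distance from the start (kb), in WT (blue) and Chd7-deficient (orange) CGNs, 1 library each. Triangles mark the member peaks within 5 kb, and their height has no meaning. The orange triangles of Top2a, Kmt2d and Kmt2a lie just upstream of the start, and the Kmt2d pair near 1.55 kb and 1.88 kb overlaps between the lists.

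At Kmt2d, all 4 WT Top2b peaks overlapped a peak of the Chd7-deficient list, at 66.7 kb downstream of the start in Ddn, 1.88 kb downstream in an intron, 9.94 kb upstream in Rhebl1 and 46.8 kb upstream at the start of Lmbr1l. The Chd7-deficient list added peaks at the start, at a second site in Ddn and at the start of Wnt1, a signalling ligand gene. At the other genes 3 WT peaks were shared, namely 81.7 kb downstream of the Kmt2a start near Tmem25, 36.5 kb downstream of the Kmt2b start at Hspb6 and Proser3, and 31.5 kb upstream of Kmt2c. In all, 7 of 18 WT peaks overlapped a Chd7-deficient peak, against 16.8% of the whole WT list, and 7 of 21 the other way, against 13.3%. Since 4 of the 7 come from the Kmt2d region, this count rests largely on 1 gene.

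The remaining peaks had no counterpart. In WT CGNs, 2 lay in coding exons of Kmt2b, 8.47 kb and 11.3 kb downstream of its start, 2 in introns of Kmt2c (46.1 kb and 130.6 kb downstream) and 1 in an intron of Kmt2a (30.2 kb). In Chd7-deficient CGNs the intragenic peaks stood elsewhere, at 79.4 kb and 108.2 kb in introns and 184.3 kb in a coding exon of Kmt2c, and at 44.5 kb in an intron of Kmt2a. Other unshared peaks stood in neighbours, such as Arcn1 and Arhgap33 in WT and Ift46 in Chd7-deficient CGNs. At Top2a, the nearest pairs between the lists were 1138 bp and 2663 bp apart, in Rara and beside Gjd3, and did not overlap. The WT peak 23.1 kb upstream in Igfbp4 lay on the H3K27ac peak there. At its own gene, the Top2b protein had a WT peak 80.8 kb downstream of the start, in Rarb and 10.5 kb past the end of Top2b, and a Chd7-deficient peak 15.2 kb downstream in an intron, on the H3K27ac peak with fold enrichment 4.95.

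Of the 18 WT Top2b peaks 6 overlapped H3K27ac of GNPs, against 17.4% of all WT Top2b peaks, and of the 21 Chd7-deficient peaks 8 did, against 26.6%. None of the 4 Chd7 peaks overlapped a WT Top2b peak (16.6% of all Chd7 peaks did), and 1 overlapped a Chd7-deficient one (34.2%). This was the Kmt2a peak 214 bp upstream, which met the Top2b peak at chr9:44881284-44881683. Chd7 and H3K27ac were mapped in progenitors and Top2b in cultured neurons, so these overlaps compare different stages, and an overlap with Top2b in Chd7-deficient cells joins different genotypes as well.

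A wider list of 26 genes, partners and opponents of these enzymes, was examined in the same way. It holds the related methyltransferases Setd1a and Setd1b and subunits of H3K4 methyltransferase complexes such as Wdr5, Rbbp5 and Men1. It also holds the H3K4 demethylases Kdm1a and Kdm5a to Kdm5d, the remaining topoisomerases and the repair enzymes Tdp1 and Tdp2. H3K27ac lay at the start of 22 of the 26 (42.9% of all protein-coding genes), with fold enrichments from 5.49 to 30.8 (median 12.3), against a median of 21.8 for the 7 genes. Chd7 was assigned to 5 of the 26 (14.3% of all), with 6 peaks, and 0 of the 26 had a peak in Chd7-deficient GNPs. At a start Chd7 was found for 1 of the 26, against 7.85% of all protein-coding genes with H3K27ac at the start. This gene was Psip1, which encodes the chromatin-tethering partner of the Kmt2a and menin complex also known as LEDGF. Its peak (chr4:83485838-83486336) lay 336 bp downstream of the start, with a pileup of 24 and an enrichment of 4.29-fold. Its −log10 q-value of 5.67 was higher than at any of the 7 genes, and it overlapped peaks of both Top2b lists. Top2b peaks were assigned to 19 of the 26 genes in WT (62.2% of all) and to 24 in Chd7-deficient CGNs (71.0% of all). At the start they were found for 5 in WT and 8 in Chd7-deficient CGNs, of which 3 were in both lists. All of these genes were among the 22 with H3K27ac at the start. Over all protein-coding genes with H3K27ac at the start the shares were 14.8% and 36.2%.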

How the data were processed

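ChIP-seq peak lists from 1 sample per condition were used. Inputs were not analysed here. The authors trimmed reads with Trim Galore, mapped them to mm10 with Bowtie (1.0.0) keeping unique alignments, and called peaks with MACS2 (GNPs) or HOMER (Top2b). Which control MACS2 used is not stated. The deposited GNP tables hold the pileup, a coverage signal, with fold enrichment and −log10 p- and q-values whose decimal points were lost. Values were divided by 100000 to put the points back. As a test, −log10 p was recomputed from the pileup and the background implied by the fold enrichment, with a largest difference of 0.00261. For H3K27ac, 31348 of the 31400 peaks could be compared. The q-values were restored in the same way and were not recomputed. The deposited Top2b lists hold coordinates only.

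Peaks were assigned by their centre and overlaps needed 1 bp. Distances of GNP peaks run from the summit, those of Top2b peaks from the centre, to the GENCODE gene start. Distances to the nearest start of a neighbouring gene run from the peak centre. Assignment and overlap were tested on simulated data. All 7 genes are named, and of the wider list those with Chd7 in the gene or within 1 kb of the start. The genes, lists and settings were chosen with earlier results of these data known. Alternatives changed the q-value limit, gene window, overlap, stitching and start distance. Analyses used Python 3.11.15 with pandas 2.3.3.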

Additional observations from a re-analysis of the deposited data

How the results depend on the processing

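Of 48 alternative values, 22 stayed within 1.5 times the value given and 26 did not. For peaks whose −log10 q reached 5, the members with WT Chd7 fell to 0, the Chd7 peaks to 0, those on H3K27ac to 0 and the wider list genes with Chd7 to 1, while 30 H3K27ac peaks remained. When the window reached only 5 kb upstream and 1 kb downstream, 1 member had Chd7, with 2 peaks, both on H3K27ac. That window held 14 H3K27ac peaks, 6 WT and 9 Chd7-deficient Top2b peaks, and 1 wider list gene with Chd7. In the gene body alone, 0 members had Chd7 (0 peaks, 0 on H3K27ac), with 8 H3K27ac peaks and 6 Top2b peaks in either genotype. By nearest gene start at any distance, which also counts peaks beyond 50 kb, 1 member had Chd7 (Kmt2a, 2 peaks, 2 on H3K27ac), with 17 H3K27ac, 8 WT Top2b and 10 Chd7-deficient Top2b peaks. Stitching within 5 kb put 1 member (Top2b) above the super-enhancer limit, a count without a share over all genes beside it. In settings added after seeing the data, 1 member (Kmt2d) had WT Top2b within 2 kb of the gene start. Of all genes with H3K27ac at the start, 17.9% did. Within 1 kb of any transcript start, 1 member (Kmt2b) had WT Top2b, against 19.2% of these genes. Chd7-deficient Top2b within 500 bp of the gene start was found for 2 members, against 30.5%. The count of 0 Chd7 peaks in Chd7-deficient GNPs and of 0 Chd7 peaks on WT Top2b held under every alternative run. Alternatives that only narrowed the window, q-value limit or overlap could not raise a count of 0, and these are among the 22. Those that could raise it were the nearest gene start and, for Top2b, peaks widened by 500 bp. A stricter Top2b list was not run, since these lists hold no score. No replicate could be left out, and no paired analysis was possible because each condition has 1 sample. The depth of each library is unknown, so a missing peak is one not detected at these limits.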
